A study of Caenorhabditis elegans with 24 samples.

Results

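The insulin-like peptide genes of Caenorhabditis elegans were followed in a poly(A) RNA time course after blunt mechanical trauma. Members were the features named ins- plus a number, together with daf-28. The deposited table listed 40 of them among 46739 features, and 32 reached 1 RPKM (reads scaled to the exon length of a gene and to the mapped reads of a library) in at least 4 of 24 libraries, the filter that 14813 features passed. All worms were labelled as the wild-type strain N2, were grown at 25 °C on RNAi against the germline cell-cycle phosphatase gene cdc-25.1, and were day 1 adults at the start. Injured worms were shaken at 8600 rpm for 16 s and control worms were handled alike without shaking. RNA was collected 8, 48 or 96 h later from pooled animals, giving 6 groups of 4 libraries. The labels number the samples of a group without naming separate cultures, and legends in the study call the replicates independent without saying in what way, so the p-values rest on how far these samples differ, which may be technical. The study's figure legends name another strain for the RNA sequencing, and the labels were followed here.

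Insulin-like peptides are small secreted hormones that are made largely in neurons and the intestine. In C. elegans they act on one receptor, DAF-2, whose PI3 kinase and AKT cascade keeps the FOXO transcription factor DAF-16 out of the nucleus. Agonists of DAF-2 favour growth and reproduction, whereas antagonists favour the dauer state, stress resistance and long life. The family is known in this animal for dauer entry and exit, adult lifespan, learning and responses to pathogens.

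Across the time course the family moved in 2 directions. In control worms most members rose with time, and ins-19, ins-7 and ins-10 rose the furthest in RPKM. In injured worms ins-19, ins-7, ins-10, ins-35 and ins-26 were lower than in controls at 96 h. The agonist gene daf-28 and the genes ins-20 and ins-23 were higher than in controls at 48 h. The antagonist gene ins-18 was higher at 48 and 96 h, its 48 h call being lost under another scaling of the libraries.

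Estimated depth ran from 19687500 to 30262500 mapped reads in 23 libraries. The remaining library, control 48 h library 4, stood apart: its depth could not be recovered, and 49.8% of its estimated reads were ribosomal RNA. Control 48 h library 2 and injured 8 h libraries 2 and 4 held 5.36% to 8.66% ribosomal RNA, against 0.905% to 3.2% elsewhere. RPKM divides by all mapped reads, and the median-of-ratios factor of control 48 h library 4 was 0.485, so its values were low across the genome. The injured 48 h libraries had factors of 1.21 to 1.27. The median log2 change over all features tested was 0.48 for injured against control at 48 h, against -0.02 at 8 h and 0.07 at 96 h. The 48 h median was still 0.25 without control 48 h library 4, and 0.16 without the libraries over 5% ribosomal RNA. For that reason scaled values follow most 48 h values as deposited, and the scaled counts of gene lists and scaled sums below were added after the data were seen. Between 5.59 and 28.9 reads made 1 RPKM for the members that passed the filter, whose exons summed to 284 to 955 bases, so values near 1 RPKM rest on few reads. In whole-worm RNA, fewer cells of a type and less RNA per cell cannot be told apart.

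The 40 genes lay on chromosomes I (10 genes), II (16), III (5), IV (4), V (3) and X (2). The 8 genes under the filter were ins-9, ins-13, ins-15, ins-21, ins-25, ins-36, ins-38 and ins-39, and both X-linked members were among them. ins-13 and ins-38 were listed at 0 in all 24 libraries. The highest value of the other six was 1.73 RPKM, for ins-36 in a control 8 h library. Neighbouring genes differed in level. In the chromosome I cluster between 14012369 and 14037777 (build ce11), ins-25 stayed under the filter with a highest value of 0.72 RPKM, while ins-26, ins-28 and ins-27 averaged 10.9, 12.8 and 13.4 RPKM in control worms at 96 h. On chromosome II, ins-2, ins-3, ins-4, ins-5 and ins-6 lie between 5988524 and 6001009, and at that time ins-4 averaged 7.62 RPKM and ins-5 1.36 RPKM. The start sites of ins-19 and ins-31 face away from each other across 600 bases of chromosome II, yet in control worms at 96 h ins-19 averaged 86 RPKM and ins-31 0.96 RPKM.

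**Figure D1:**
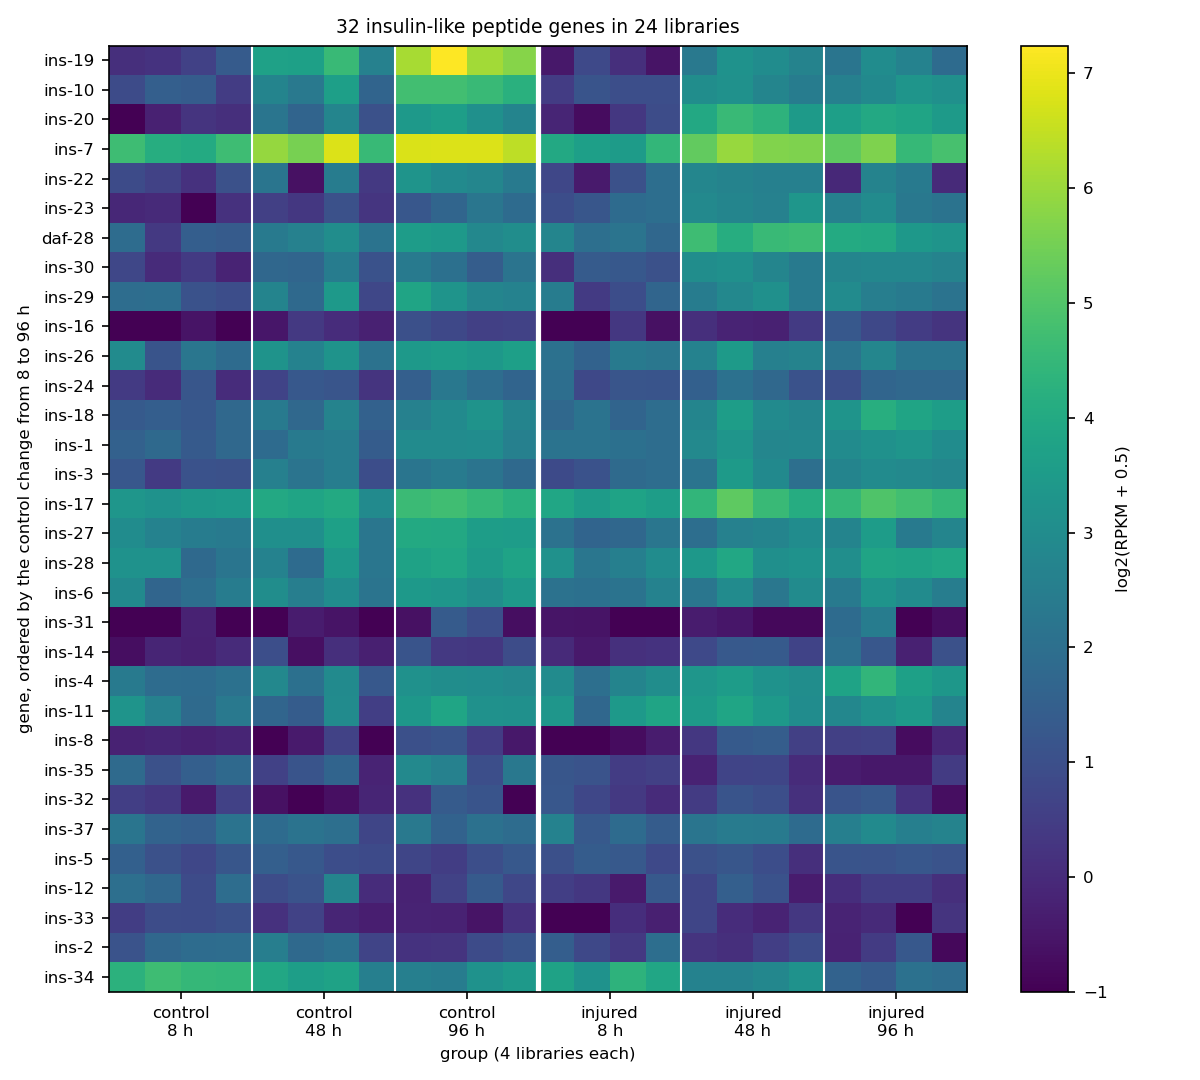
Heat map of log2(RPKM + 0.5) for the 32 insulin-like peptide genes that passed the filter (rows, ordered by the control change from 8 to 96 h) in 24 libraries (columns, 4 per group, control groups left of the thick white line). ins-19, at the top, rose to between 53.16 and 150.99 RPKM in control worms at 96 h and stayed between 3.15 and 7.47 RPKM in injured worms.

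The uninjured groups gave the change of the family with time after handling. Between 8 and 96 h, 21 members rose and 3 fell of 32, which is 75% of them, against 62.1% of all features tested (36.2% higher, 26% lower). The members' median log2 change was 1.17, against 0.19 over all features. The summed RPKM of the 40 genes was 117 ± 14.6 (SD, n = 4) at 8 h, 189 ± 90.9 at 48 h and 389 ± 70.1 at 96 h. At 8 h ins-34 and ins-7 led the family with means of 22 and 20.8 RPKM. At 96 h ins-7 alone averaged 27% of the family's summed RPKM and ins-19 averaged 21.2%. By log2 change the largest rises were those of ins-19 (log2 change 5.74 ± 0.38 SE), ins-10 (3.52 ± 0.29), ins-20 (3.45 ± 0.34) and ins-7 (2.32 ± 0.32). Outside the genes described one by one, ins-22 rose by 2.16, ins-30 by 1.75, ins-29 by 1.64 and ins-16 by 1.63 on the log2 scale. ins-16 passed the filter through 96 h libraries only, so its rise is not independent of the filter. The 3 falls were those of ins-34 (-1.57), ins-2 (-1.06) and ins-33 (-1.03).

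The steps of that rise were less even. From 8 to 48 h, 11 members rose and 2 fell, 40.6% of 32 against 48.7% of all features (18.8% higher, 30% lower). From 48 to 96 h, 13 rose and 0 fell by limma, 40.6% against 12.9% of all features (11.7% higher, 1.26% lower), with 2 lower at an unadjusted p under 0.05. After median-of-ratios scaling 9 rose and 2 fell in that step, against 6.76% higher and 10.7% lower of all features. The count of the later step rested on the 48 h controls, since it was 7 without control 48 h library 4, 21 without control 48 h library 3 and 5 without the libraries over 5% ribosomal RNA. It was also 7 without control 96 h library 2.

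Injury was compared with handling at each time. At 8 h, 3 members were higher and 1 lower, 12.5% of 32 against 22.4% of all features tested (11% higher, 11.4% lower). That count was 2 without control 8 h library 2, 10 without control 48 h library 4 and 7 without control 48 h library 3. It was 10 after scaling, 31.2% of members against 37.6% of all features. At 48 h, 14 were higher and 2 lower, 50% against 56.1% (45.8% higher, 10.2% lower). After median-of-ratios scaling the 48 h split became 7 and 7, against 30% higher and 28.6% lower of all features, and leaving control 48 h library 4 out gave 11 and 4. At 96 h, 5 were higher and 8 lower, 40.6% against 61.2% (32.8% higher, 28.4% lower). The members' median log2 changes were 0.09, 0.58 and -0.07 at the 3 times. ins-23 was higher at all 3 times, and 7 members (ins-3, ins-5, ins-6, ins-12, ins-16, ins-29 and ins-31) changed at none. The two-sided exact permutation test of 4 libraries against 4, over 70 arrangements, cannot go below p = 0.0286, and that was its value for each gene described below whose groups did not overlap.

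**Figure D2:**
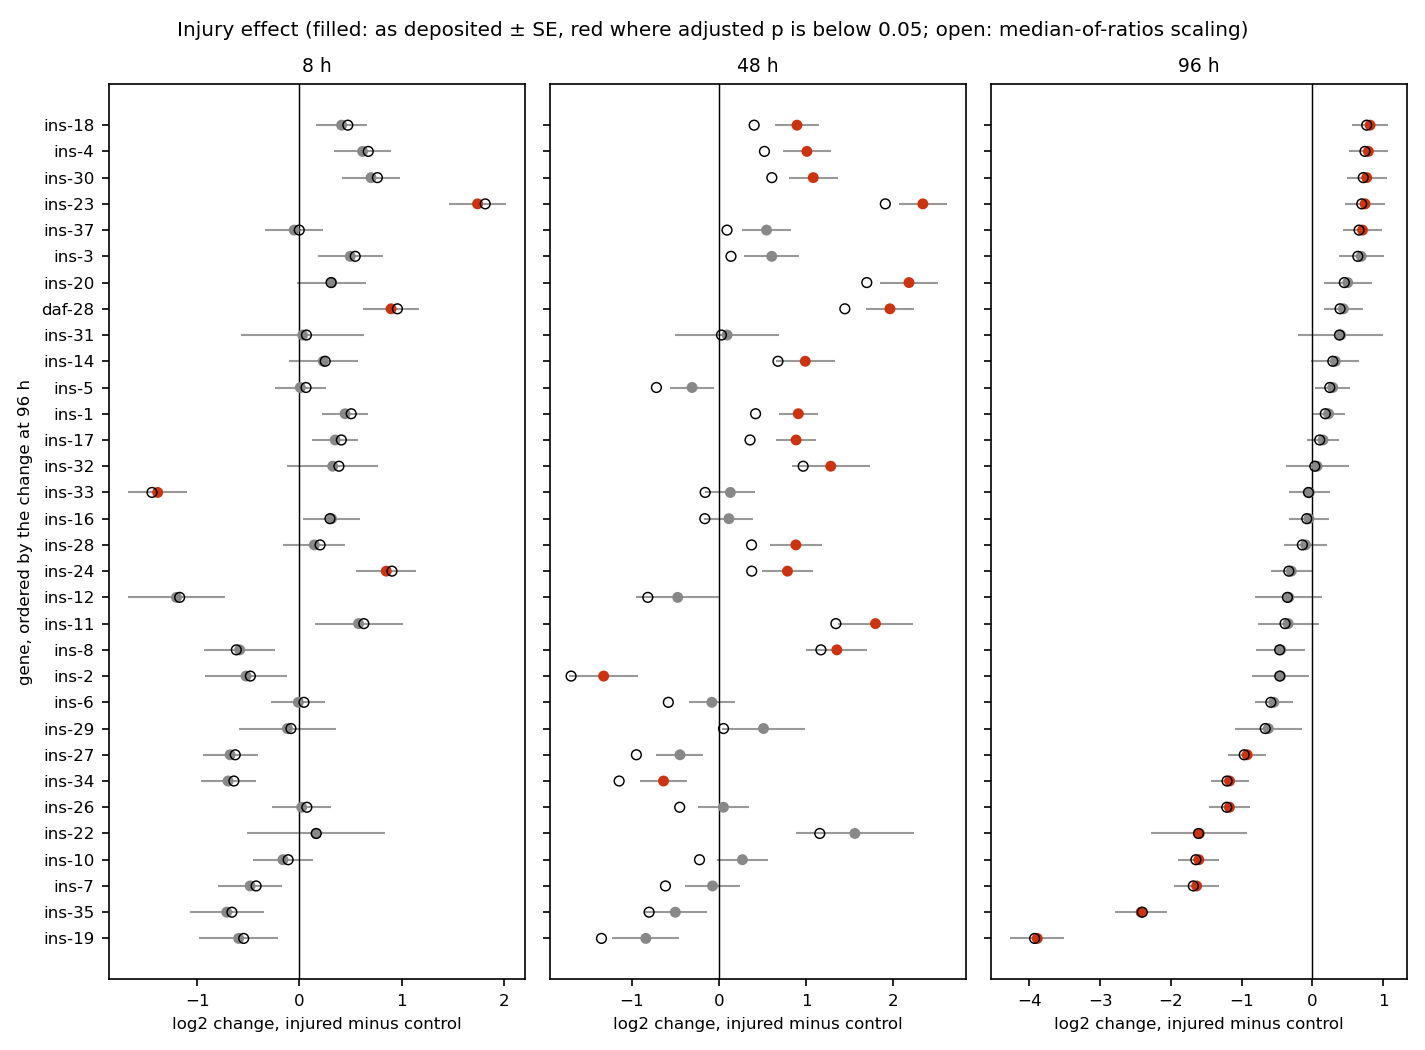
Log2 change of injured against control worms (x axis) for each of the 32 genes (y axis, ordered by the change at 96 h) at 8, 48 and 96 h. Filled points with bars are the estimates from deposited values ± SE, red where the adjusted p is below 0.05, and open points are the estimates after median-of-ratios scaling. At 48 h the open points lie to the left of the filled ones, and at 96 h they nearly coincide.

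The ligands listed as agonist-type are daf-28, ins-3, ins-4, ins-6 and ins-7, which act through DAF-2 in dauer or lifespan assays. Of these 5, daf-28 alone was higher at 8 h, daf-28 and ins-4 were higher at 48 h, and at 96 h ins-4 was higher and ins-7 lower. Of all features, 11%, 45.8% and 32.8% were higher at these times, and 11.4%, 10.2% and 28.4% were lower. After scaling the 48 h split of the 5 was 2 higher and 2 lower (ins-6 and ins-7), beside 30% and 28.6% of all features. The gene daf-28 encodes an agonist made in the sensory neurons ASI and ASJ that holds back dauer entry, and it lies on chromosome V from 19815133 to 19816454.

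At 8 h daf-28 was at 3.31, 0.8, 2.24 and 2.09 RPKM in the control libraries and at 6.3, 3.53, 4.05 and 2.89 RPKM in the injured ones. The groups overlapped by 1 injured library. At 48 h the control libraries read 4.79, 5.62, 7.73 and 3.9 RPKM and the injured ones 25.18, 17.01, 23.58 and 24.52 RPKM. Every injured library then stood above every control library. At 96 h the values were 11.34, 10.34, 6.72 and 7.74 RPKM in controls and 15.98, 15.1, 10.06 and 9.04 RPKM after injury, and the groups overlapped again. Means at 48 h were 5.51 ± 1.64 and 22.6 ± 3.77 RPKM (SD, n = 4), a 4.1-fold difference. The log2 change was 0.90 ± 0.27 (SE) at 8 h (limma adjusted p = 0.0142), 1.96 ± 0.27 at 48 h (limma adjusted p = 2.68e-07) and then 0.44 ± 0.27 at 96 h (limma adjusted p = 0.163). After scaling the 48 h change was 1.45. The 8 h call rested on single libraries, with limma adjusted p = 0.132 without control 8 h library 2 and 0.0912 without injured 8 h library 1. The change at 48 h exceeded that at 8 h by 1.07 as deposited (limma adjusted p = 0.0287), a call lost after scaling (0.49, limma adjusted p = 0.341). In the controls themselves daf-28 rose from 8 to 96 h by 1.94 ± 0.27.

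The gene ins-7 encodes an agonist made in neurons and intestine whose transcription is held down by DAF-16, so that it takes part in a feedback between tissues. It lies on chromosome IV from 9682011 to 9682845. At 8 h it was at 24.94, 17.03, 15.86 and 25.24 RPKM in controls and 15.31, 11.98, 10.88 and 21.41 RPKM in injured worms. At 48 h controls read 60.37, 46.49, 110.66 and 23.18 RPKM and injured worms 37.58, 61.64, 51.28 and 49.41 RPKM. The groups overlapped at both times, and the 48 h controls were widely spread. At 96 h controls read 109.06, 112.17, 111.15 and 84.64 RPKM and injured worms 36.82, 50.04, 22.7 and 28.33 RPKM. Every injured library was then under every control library, with means of 104.3 ± 13.1 and 34.5 ± 11.9 RPKM (SD, n = 4), 3.02-fold lower after injury. On the log2 scale the difference was -0.48 ± 0.32 (SE) at 8 h (limma adjusted p = 0.313), -0.08 ± 0.32 at 48 h (limma adjusted p = 0.855; -0.62 and 0.0348 after scaling) and then -1.64 ± 0.32 at 96 h (limma adjusted p = 7.58e-05). Between 8 and 96 h ins-7 rose 2.32 in controls.

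The gene ins-6 encodes an agonist that promotes exit from dauer, and it lies on chromosome II from 6000436 to 6001009. The 8 h libraries held it at 7.01, 2.69, 3.42 and 4.97 RPKM in controls and 3.82, 3.65, 3.93 and 5.78 RPKM after injury. Control libraries of 48 h read 7.68, 5.26, 7.63 and 4.05 RPKM and injured worms 4.16, 7.42, 4.29 and 7.34 RPKM. The groups overlapped at both times. Control libraries of 96 h read 10.47, 9.48, 7.97 and 10.53 RPKM and injured worms 4.69, 9.22, 7.41 and 5.18 RPKM, again with overlap. No injury change of ins-6 passed the test as deposited. The 48 h estimate was -0.08 ± 0.26 (SE, limma adjusted p = 0.807), and after scaling ins-6 was called lower at that time. The 96 h estimate was -0.54 ± 0.26 (SE, limma adjusted p = 0.0729), and it passed in 4 of 33 alternatives, among them scaling (limma adjusted p = 0.0373). In controls ins-6 rose by 1.08 ± 0.26 from 8 to 96 h. The 2 other genes of the list differed, ins-4 being higher by 1.01 at 48 h (0.52 and 0.0305 after scaling) and by 0.79 at 96 h, while ins-3 passed no injury test. The 96 h call of ins-4 was lost without injured 96 h library 2 (0.59, limma adjusted p = 0.0754), and its 48 h call was lost without the libraries over 5% ribosomal RNA (0.39, limma adjusted p = 0.135).

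The antagonist-type list holds ins-1, ins-17 and ins-18, and the 3 were higher at 48 h as deposited, beside 45.8% of all features. After scaling ins-1 alone of these passed the test, beside 30% of all features higher. At 96 h ins-18 was higher, beside 32.8% of all features. The gene ins-1, which is close in layout to human insulin and acts in aversive learning, lies on chromosome IV from 10436701 to 10438412. Its 8 h values were 2.45, 3, 2.02 and 2.94 RPKM in controls and 3.93, 3.94, 3.6 and 3.33 RPKM after injury. By 48 h the controls read 3.17, 4.66, 5.19 and 2.13 RPKM and injured worms 6.86, 9.4, 6.35 and 6.58 RPKM. Injured libraries were above the controls at both times. By 96 h the controls read 7.4, 7.39, 7.57 and 5.51 RPKM and injured worms 7.43, 8.58, 9.28 and 7.63 RPKM, with overlap. The estimated log2 change was 0.45 ± 0.23 (SE) at 8 h (limma adjusted p = 0.167), 0.91 ± 0.23 at 48 h (limma adjusted p = 0.000869; 0.42 and 0.047 after scaling) and then 0.23 ± 0.23 at 96 h (limma adjusted p = 0.386). The 8 h estimate passed after scaling (0.51, limma adjusted p = 0.0274) and without control 48 h library 4 (limma adjusted p = 0.0394).

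The gene ins-18 encodes an antagonist of DAF-2 and lies on chromosome I from 8147427 to 8149651. At 8 h it was at 2.02, 2.27, 1.92 and 2.95 RPKM in controls and 2.95, 3.89, 2.64 and 3.35 RPKM after injury, with overlap. At 48 h controls read 4.81, 2.96, 5.99 and 2.44 RPKM and injured worms 6.17, 11.42, 7.28 and 6.28 RPKM. At 96 h controls read 5.65, 7.2, 8.87 and 6.08 RPKM and injured worms 9.02, 17.37, 13.43 and 11.4 RPKM. The injured libraries stood above the controls at 48 and 96 h. Means at 96 h were 6.95 ± 1.44 and 12.8 ± 3.54 RPKM (SD, n = 4), 1.84-fold higher after injury. The log2 change was 0.41 ± 0.25 (SE) at 8 h (limma adjusted p = 0.265), 0.90 ± 0.25 at 48 h (limma adjusted p = 0.00276; 0.40 and 0.131 after scaling) and then 0.82 ± 0.25 at 96 h (limma adjusted p = 0.00521; 0.77 and 0.00422 after scaling).

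The widest difference from controls was that of ins-19, on chromosome II from 3126037 to 3126441. The 8 h libraries held it at 0.59, 0.66, 1.01 and 2.08 RPKM in controls and 0.23, 1.25, 0.59 and 0.18 RPKM after injury, near the floor and overlapping. Control libraries of 48 h read 12.53, 12.32, 23.58 and 5.66 RPKM and injured worms 4.58, 8.61, 7.62 and 5.9 RPKM. Control libraries of 96 h read 71.86, 150.99, 67.91 and 53.16 RPKM and injured worms 4.09, 7.47, 5.75 and 3.15 RPKM. The 48 h groups overlapped and the 96 h groups were far apart, with means of 86 ± 44.1 and 5.11 ± 1.9 RPKM (SD, n = 4), 16.8-fold lower after injury. On the log2 scale the difference was -0.59 ± 0.38 (SE) at 8 h (limma adjusted p = 0.306), -0.84 ± 0.38 at 48 h (limma adjusted p = 0.0651; -1.35 and 0.00267 after scaling) and then -3.89 ± 0.38 at 96 h (limma adjusted p = 5.47e-09). The 96 h change was called in 33 of 33 alternatives, with adjusted p from 7.11e-13 to 1.89e-06. Its difference from the 8 h change was -3.30 ± 0.54 (limma adjusted p = 4.46e-05).

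The gene ins-10 lies on chromosome V from 14033949 to 14034396, where its exons overlap those of vps-39 on the other strand. Counting by strand is not stated for this table, so reads of the 2 genes cannot be told apart there. At 8 h ins-10 was at 1.34, 2.34, 2.12 and 0.88 RPKM in controls and 0.88, 1.72, 1.49 and 1.48 RPKM after injury. By 48 h the controls read 6.03, 4.55, 12.15 and 2.62 RPKM and injured worms 7.65, 8.49, 6.23 and 5.05 RPKM, and at both times the groups overlapped. By 96 h the controls read 26.44, 26.34, 23.64 and 18.22 RPKM and injured worms 5.5, 7, 9.25 and 8.22 RPKM. Every injured library was then under every control library, 3.16-fold lower in the mean. The estimated log2 change was -0.16 at 8 h, 0.27 at 48 h (-0.22 after scaling) and -1.60 ± 0.29 (SE) at 96 h (limma adjusted p = 1.43e-05). The gene vps-39 moved the other way at 96 h, with 30.7 ± 4.57 RPKM in controls and 46.4 ± 8.25 RPKM after injury (log2 change 0.58, limma adjusted p = 0.0151), and was named for this overlap.

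The gene ins-35, which is expressed in the intestine, lies on chromosome V from 20375536 to 20376302. Its 8 h values were 3.12, 1.55, 2.3 and 3.01 RPKM in controls and 1.82, 1.67, 0.87 and 0.97 RPKM after injury. At 48 h controls read 1.01, 1.71, 2.66 and 0.39 RPKM and injured worms 0.36, 1.1, 1.16 and 0.52 RPKM. The groups overlapped at both times. At 96 h controls read 6.88, 5.68, 1.46 and 4.43 RPKM and injured worms 0.27, 0.22, 0.22 and 0.85 RPKM. Injured libraries were then under 1 RPKM and under every control library, 11.8-fold lower in the mean, with a log2 change of -2.42 ± 0.36 (SE, limma adjusted p = 1.74e-06). At 8 h the change was -0.71 and at 48 h -0.50 (-0.80 and 0.0586 after scaling), and neither passed the test.

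The gene ins-26 is the end member of the chromosome I cluster, from 14037151 to 14037777. At 8 h it was at 7.3, 1.7, 4.23 and 3.15 RPKM in controls and 3.69, 2.49, 4.68 and 4.35 RPKM after injury. Control libraries of 48 h read 8.88, 5.73, 8.9 and 3.81 RPKM and injured worms 5.79, 10.64, 5.51 and 5.97 RPKM. Both times showed overlap. Control libraries of 96 h read 10.31, 11.2, 10.12 and 12.08 RPKM and injured worms 4.01, 6.41, 4.09 and 4.1 RPKM, without overlap. The log2 change at 96 h was -1.17 ± 0.29 (SE, limma adjusted p = 0.000749). Its neighbour ins-27 was also lower at 96 h (-0.92), whereas ins-30 was higher (0.77) and ins-24, ins-28 and ins-29 passed no test at that time. The call of ins-30 was lost without control 96 h library 3 (0.58, limma adjusted p = 0.0921).

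**Figure D3:**
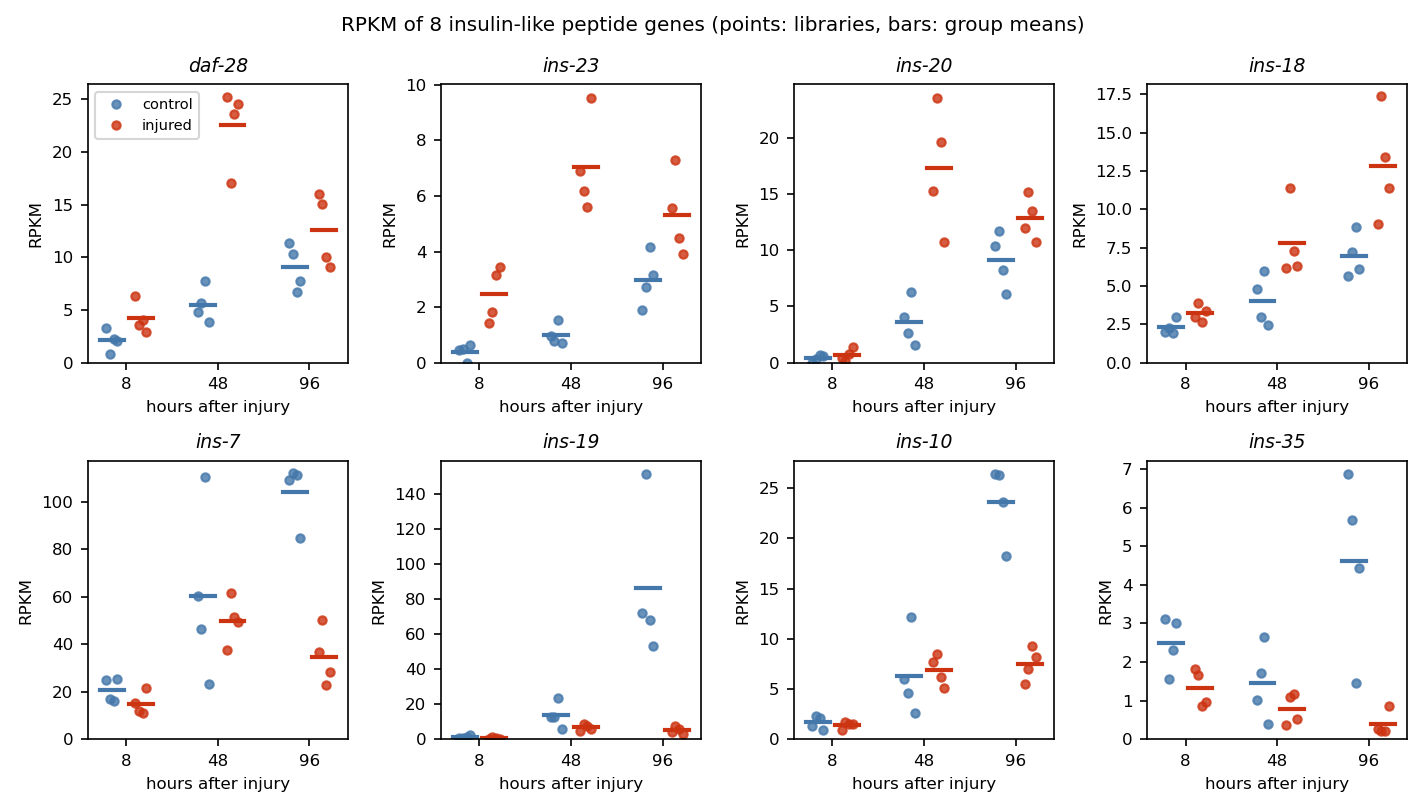
RPKM (y axis, from 0) of 8 insulin-like peptide genes in each library (points) with group means (bars), for control (blue) and injured (red) worms at 8, 48 and 96 h (x axis). The upper panels show genes that were higher after injury at 48 h, such as daf-28 with 22.6 against 5.51 RPKM, and the lower panels show genes that were lower at 96 h, such as ins-7 with 34.5 against 104.3 RPKM.

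Of the genes that were higher after injury, ins-23 lies on chromosome III from 10028247 to 10028697, next to ins-21 and ins-22. The 8 h libraries held it at 0.44, 0.49, 0 and 0.62 RPKM in controls and 1.44, 1.83, 3.17 and 3.46 RPKM after injury. By 48 h the controls read 0.96, 0.77, 1.55 and 0.71 RPKM and injured worms 6.9, 6.19, 5.59 and 9.54 RPKM. At both times the injured libraries were above the controls. By 96 h the controls read 1.88, 2.72, 4.16 and 3.15 RPKM and injured worms 5.57, 7.3, 4.47 and 3.9 RPKM, with 1 injured library under the highest control. The log2 change was 1.74 ± 0.28 (SE) at 8 h (limma adjusted p = 8.27e-06), 2.34 ± 0.28 at 48 h (limma adjusted p = 1.38e-08; 1.91 and 2.56e-06 after scaling) and then 0.75 ± 0.28 at 96 h (limma adjusted p = 0.0191). The 96 h call was lost without control 96 h library 1 (0.58, limma adjusted p = 0.0934) or injured 96 h library 2 (0.59, limma adjusted p = 0.079). Next to it, ins-22 was lower at 96 h by a log2 change of -1.60 that failed the test in 17 of 33 alternatives, for example without injured 96 h library 1 (-1.16, limma adjusted p = 0.166) or injured 96 h library 4 (-1.18, limma adjusted p = 0.169).

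The gene ins-20 lies on chromosome II from 6010844 to 6011321, 9835 bases beyond ins-6. Its 8 h values were 0, 0.34, 0.67 and 0.59 RPKM in controls and 0.4, 0.1, 0.76 and 1.39 RPKM after injury, under 1.5 RPKM in every library. At 48 h controls read 4.09, 2.66, 6.3 and 1.55 RPKM and injured worms 15.24, 23.58, 19.66 and 10.73 RPKM, and the groups did not overlap. At 96 h controls read 10.38, 11.69, 8.28 and 6.13 RPKM and injured worms 12, 15.21, 13.51 and 10.77 RPKM, with overlap. On the log2 scale the difference was 0.32 at 8 h, 2.18 ± 0.34 (SE) at 48 h (limma adjusted p = 3.23e-06; 1.70 and 5.06e-05 after scaling) and 0.50 at 96 h. Injured worms at 48 h were thus above the controls of 96 h in the mean, 17.3 against 9.12 RPKM, a pair of groups that was not tested.

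The genes ins-33 and ins-34 fell with time in controls and were lower after injury, ins-33 at 8 h and ins-34 at 48 and 96 h. The gene ins-33 is a target of the developmental timing factor LIN-14 and lies on chromosome I from 13637845 to 13639311. At 8 h it was at 0.92, 1.4, 1.35 and 1.54 RPKM in controls and 0, 0, 0.56 and 0.32 RPKM after injury. Injured libraries were under the controls, and the log2 change was -1.39 ± 0.29 (SE, limma adjusted p = 0.000348). Control libraries of 48 h read 0.64, 1.06, 0.4 and 0.31 RPKM and injured worms 1.14, 0.53, 0.38 and 0.75 RPKM. Control libraries of 96 h read 0.39, 0.36, 0.18 and 0.62 RPKM and injured worms 0.39, 0.48, 0 and 0.69 RPKM. Both later times overlapped, at log2 changes of 0.13 (-0.16 after scaling) and -0.04, and few reads lay behind any of these values. ins-33 passed the filter with 5 libraries, mostly of the control 8 h group. Its 8 h difference, its fall in controls and the shifts of its injury difference from 8 h rest on that same group. They are therefore not independent of the filter. The gene ins-34 lies on chromosome IV from 14106574 to 14107737 and overlaps exons of nkcc-1 on the other strand. At 8 h ins-34 was at 19.21, 25.16, 22.15 and 21.29 RPKM in controls and 12.84, 8.66, 19.41 and 14.28 RPKM after injury. By 48 h the controls read 14.94, 11.88, 12.91 and 5.39 RPKM and injured worms 5.74, 5.79, 6.58 and 8.77 RPKM, and both times overlapped. By 96 h the controls read 5.44, 4.97, 8.7 and 10.34 RPKM and injured worms 2.51, 2.08, 3.75 and 3.33 RPKM, without overlap. The estimated log2 change was -0.70 at 8 h, -0.64 ± 0.27 (SE) at 48 h (limma adjusted p = 0.0417; -1.15 and 3.57e-05 after scaling) and then -1.17 ± 0.27 at 96 h (limma adjusted p = 0.000309). As deposited, the 48 h call of ins-34 was lost without any one of 6 libraries, with a highest adjusted p of 0.154 without control 48 h library 1. At 96 h nkcc-1 was at 34 ± 0.568 RPKM in controls and 26 ± 0.981 RPKM after injury (log2 change -0.38, limma adjusted p = 0.117).

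Other calls at 48 h were mostly rises as deposited, as they were over all features (45.8% higher, 10.2% lower). After scaling 30% of all features were higher and 28.6% lower. The intestinal peptide gene ins-11, which pathogens induce, was higher by 1.80 (limma adjusted p = 0.00122; 1.34 and 0.00141 after scaling), with 2.75, 2.15, 7.39 and 0.94 RPKM in controls and 10.86, 13.77, 10.42 and 7.57 RPKM after injury. ins-2 was lower by a log2 change of -1.33 (limma adjusted p = 0.00628; -1.70 and 0.000305 after scaling). The calls of ins-14, ins-17, ins-18, ins-24, ins-28, ins-30 and ins-32, all higher as deposited, were lost after scaling, and ins-5, ins-6, ins-7, ins-19 and ins-27 were lower after scaling only. ins-8 was higher by 1.35 (1.17 and 0.00714 after scaling), a call lost without the libraries over 5% ribosomal RNA (1.10, limma adjusted p = 0.0543). At 8 h ins-24 was higher by 0.85 (limma adjusted p = 0.0314), and that call was lost without control 8 h library 1, 2 or 4 or injured 8 h library 1. At 96 h ins-37 was higher by 0.71 (limma adjusted p = 0.0284), and its call was lost without control 96 h library 2 or 4 or injured 96 h library 2. Its exons overlap R05D7.8 and F08G2.9, which were listed at 0 in every library.

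The change of the injury difference between times was tested as an interaction. From 8 to 48 h it moved up in 4 members (12.5%), daf-28, ins-8, ins-20 and ins-33, the last from -1.39 to 0.13, against 36.9% of all features called (31.6% higher, 5.29% lower). From 48 to 96 h it moved down in 11 of 32 (34.4%) and up in 0 by limma, with 0 up at an unadjusted p under 0.05, against 14.9% of all features (0.662% up, 14.3% down). After scaling 8 moved down and 0 up, against 7.16% and 7.69% of all features, and the calls of daf-28, ins-20 and ins-26 were lost. With array weights 15 moved down and 2 up, ins-2 by 1.97 and ins-5 by 0.82, against 26.3% and 12.3% of all features. Without the libraries over 5% ribosomal RNA that count was 3, 9.38% of members against 9.78% of all features, and it was 7 without injured 48 h library 2 or injured 96 h library 4. From 8 to 96 h it moved down in 7 and up in 1 (25%), against 43.7% of all features (23.6% up, 20.1% down). The 7 were ins-7, ins-10, ins-19, ins-23, ins-24, ins-26 and ins-35. These comparisons share libraries with each other and with the control time course.

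The family total followed the abundant members. Injured worms held 113 ± 21.2, 249 ± 40.4 and 222 ± 42.3 summed RPKM at 8, 48 and 96 h (SD, n = 4), against 117, 189 and 389 in controls. After scaling the totals at 48 h were 206.1 ± 31.6 in injured worms and 210.5 ± 41.5 in controls, closer than their SDs, and at 96 h they were 205.1 ± 44.5 and 370.5 ± 66. At 96 h ins-7 made 15.3% of the total after injury and 27% in controls, and ins-19 made 2.25% and 21.2%. The shares of daf-28 at 48 h were 9.4% after injury and 3.23% in controls.

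**Figure D4:**
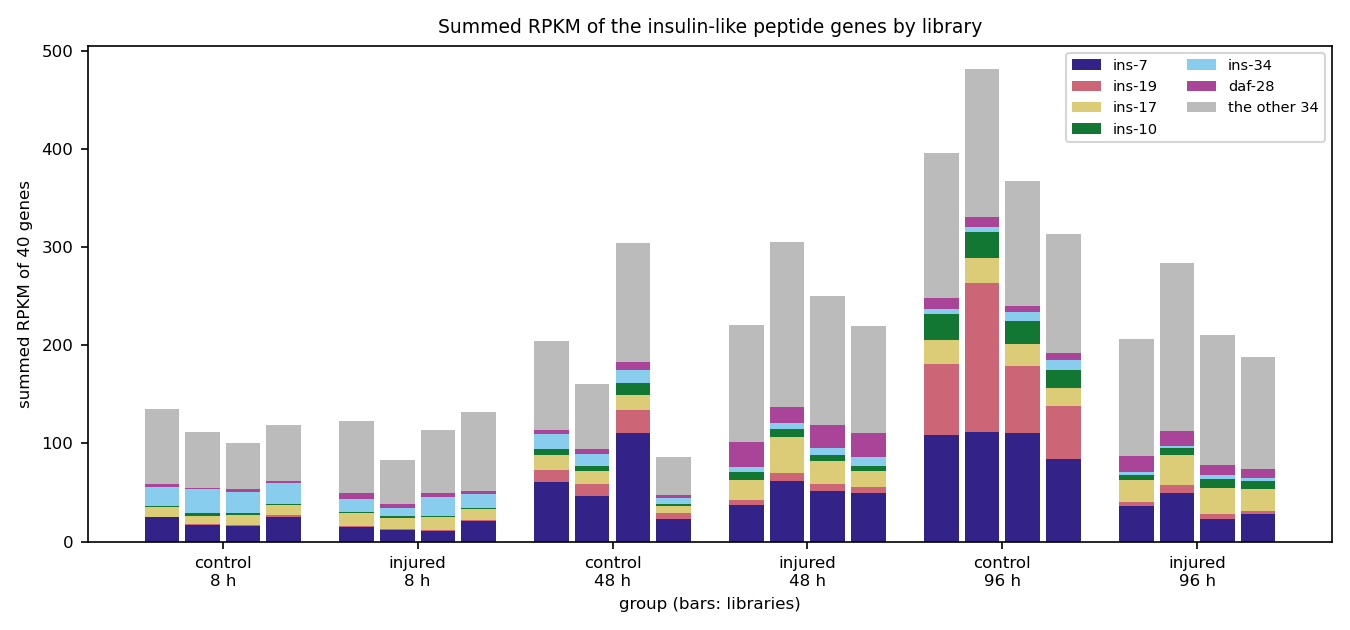
Summed RPKM of the 40 insulin-like peptide genes (y axis, from 0) in each library (bars, 4 per group), split into ins-7, ins-19, ins-17, ins-10, ins-34, daf-28 and the remaining genes. Control totals reached 313 to 481 RPKM at 96 h against 188 to 284 RPKM after injury, and the ins-7 and ins-19 segments are the parts that shrink the most.

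Downstream of the ligands, the receptor gene daf-2 and the FOXO gene daf-16 passed no injury test, with log2 changes of -0.26, 0.29 and 0.01 for daf-2 and -0.11, 0.38 and -0.31 for daf-16 at 8, 48 and 96 h (-0.24 and -0.16 at 48 h after scaling). Of 18 genes from the receptor to FOXO, 7 were higher at 48 h, beside 45.8% of all features, with a median log2 change of 0.35 against 0.48. At 96 h 5 were higher and 2 lower, beside 32.8% and 28.4% of all features. After scaling the 48 h count became 5 higher and 3 lower, beside 30% and 28.6% of all features. The PI3 kinase adaptor gene aap-1 was higher by 1.26 at 48 h (0.72 after scaling) and 1.17 at 96 h, and the kinase gene sgk-1 was lower at 96 h (-1.56).

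Of 14 tested genes for peptide processing and release, 3 were higher at 8 h, beside 11% of all features. At 48 h 6 were higher and 2 lower, beside 45.8% and 10.2%. After scaling 1 was higher and 7 lower, beside 30% and 28.6%. At 96 h 3 were higher and 5 lower, beside 32.8% and 28.4%. Among them the dense-core vesicle gene ida-1 was higher by 0.96, 0.79 and 1.54 at the 3 times, its 48 h call being lost after scaling (0.25, limma adjusted p = 0.341). At 96 h unc-31, the CAPS gene for vesicle release, was higher by 1.26 and the prohormone convertase gene aex-5 lower (-1.49).

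Of 13 tested genes that DAF-16 is known to raise or regulate, 2 were higher and 6 lower at 8 h, 2 and 9 at 48 h (1 and 11 after scaling), and 1 and 10 at 96 h. Their median log2 changes were -0.54, -0.96 and -1.89, against -0.02, 0.48 and 0.07 over all features. Of all features, 11% were higher and 11.4% lower at 8 h, 45.8% and 10.2% at 48 h (30% and 28.6% after scaling), and 32.8% and 28.4% at 96 h. The superoxide dismutase gene sod-3 was lower at 8 h (-1.54), and at 96 h the lysozyme gene lys-7 (-3.52) and the catalase genes ctl-2 (-2.16) and ctl-1 (-1.89) were lower. The small heat shock protein gene hsp-12.6 went the other way, higher by 2.15 at 8 h, 2.45 at 48 h (1.98 after scaling) and 2.29 at 96 h, and at 96 h it was at 15.4 to 20.9 RPKM in controls and 70.5 to 94.61 RPKM after injury. So did lea-1 at 8 h, with 83.89 to 101.16 RPKM in controls and 124.12 to 181.45 RPKM after injury. Its 48 h values as deposited were 54.44 to 110.16 and 118.5 to 157 RPKM, and its groups overlapped at 96 h.

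Tissue markers moved beside these results. Pan-neuronal markers were higher in 4 of 16 at 8 h, 12 at 48 h and 3 at 96 h (1 lower). Over all features tested, 11%, 45.8% and 32.8% were higher at these times, and 11.4%, 10.2% and 28.4% were lower. The pan-neuronal count at 96 h lay under its share, and some marker counts below lay near or under theirs. Their summed level at 48 h was 348.9 to 794.1 RPKM in controls, the lowest in control 48 h library 4, and 827.5 to 960.7 RPKM after injury. After scaling 5 were higher at 48 h and the sums, 688.6 to 740.5 and 704.1 to 791.2, overlapped. Of all features, 30% were higher and 28.6% lower at 48 h after scaling. Ciliated sensory neuron markers were higher in 6 of 9 tested at 48 h, with summed levels of 21.69 to 49.54 and 55.84 to 66.38 RPKM, beside the rise of daf-28. After scaling 2 were higher, with sums of 43.35 to 46.14 and 47.51 to 55.11. At 96 h, when daf-28 passed no test, 4 of these markers were higher and 1 lower, with sums of 43.01 to 52.09 RPKM in controls and 59.42 to 60.58 RPKM after injury. Intestinal markers were lower in 8 of 10 tested at 96 h, with summed levels of 1804 to 2154 RPKM in controls and 532.6 to 992.8 RPKM after injury, beside the lower ins-7 and ins-35. At 48 h 3 of them were higher and 3 lower (1 and 7 after scaling), beside the higher ins-11. The 6 vitellogenin genes were lower at 48 and 96 h, and at 96 h their summed level was 13782 to 18918 RPKM in controls and 1983 to 4610 RPKM after injury. Hypodermis markers were lower in 3 of 9 at 48 h (7 after scaling) and in 3 at 96 h, where they summed to 246.1 to 282.5 and 82 to 136.8 RPKM. Of 15 oocyte and germline markers 13 were higher at 48 and at 96 h, while the abundant eggshell genes perm-2 and perm-4 were lower, and the list summed at 96 h to between 12485 and 13303 RPKM in controls and between 4522 and 5295 RPKM after injury. Several sums leaned on 1 gene: snb-1 in the pan-neuronal list, odr-4 in the ciliated list and asp-1 in the intestinal list. At 96 h odr-4 read 25.36 to 27.32 RPKM in controls and 30.58 to 33.79 RPKM after injury. At that time asp-1 read 1120.15 to 1414.58 and 154.5 to 386.32 RPKM. No marker was at 0 throughout a group, and the part of these tissue changes in the changes of the insulin-like genes was not tested.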

How the data were processed

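Poly(A) RNA of pooled whole worms was sequenced as paired 150-base reads, and the authors processed it in CLC Genomics Workbench with build ce11. The deposited table gives RPKM per gene and library. Its mapping settings, annotation release and strand setting are not given in the sources used here. It also holds the authors' p-values and false discovery rate p-values for each time, which were not used. Its columns name groups but no replicate numbers, so libraries were numbered by column order within a group.

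RPKM values were analysed as log2(RPKM + 0.5) for features with at least 1 RPKM in at least 4 libraries. One limma model (version 3.58.1, R 4.3.3, trended and robust empirical Bayes) held the 6 groups and gave 9 comparisons, each Benjamini-Hochberg adjusted over 14813 features with a threshold of 0.05. Tested on simulated data for the 8 h comparison (14813 features), it recovered 57% of 100 features changed by a log2 of 1 and 98% of 100 changed by 2. Depth was estimated from the steps of low RPKM values. Coordinates are those of WBcel235, which is ce11, in Ensembl release 115.

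The members and lists were chosen with earlier results of these data known. Values in every library are given for daf-28, ins-1, ins-6, ins-7 and ins-18 and for the 10 members with the smallest adjusted p in an injury comparison. Of other members, 4 with the largest control change over time are named, and of other lists up to 3 changed genes per comparison, of which 1 is not reported here; further members and vps-39, nkcc-1, daf-2, daf-16, hsp-12.6, perm-2 and perm-4 were named after their values were seen. Alternatives were the pseudocount, the filter, median-of-ratios and quantile scaling, array weights, leaving out libraries and fitting only the groups compared. Scaled list counts and scaled sums were added after the data were seen. Python 3.11.15, pandas 2.3.3 and matplotlib 3.10.9 were used.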

Additional observations from a re-analysis of the deposited data

Results flagged for a closer look

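In 192 groups of 4 libraries, 10 held 1 library far from the other 3 by Dixon's criterion, which chance alone meets in about 1 of 20 groups. Above their groups stood injured 48 h library 2 for ins-1 (9.4 RPKM, others 6.35 to 6.86) and ins-26 (10.64, others 5.51 to 5.97), injured 96 h library 2 for ins-26 (6.41, others 4.01 to 4.1), injured 8 h library 4 for ins-6 (5.78, others 3.65 to 3.93) and injured 96 h library 4 for ins-35 (0.85, others 0.22 to 0.27). Control 8 h library 3 held ins-16 at 0.18 and ins-31 at 0.36 RPKM where the other 3 libraries were listed at 0. With the other 3 at 0, any value above 0 meets the criterion, so the rate of 1 of 20 does not apply there. Below their groups stood control 96 h library 4 for ins-1 (5.51, others 7.39 to 7.57) and ins-7 (84.64, others 109.06 to 112.17), and injured 96 h library 1 for ins-24 (1.47, others 2.7 to 2.95).

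The injury difference itself changed between times in 23 tests. From 8 to 48 h its log2 value rose by 1.52 for ins-33, 1.94 for ins-8, 1.07 for daf-28 and 1.87 for ins-20, with limma adjusted p from 0.00265 to 0.0287. Of these 4 calls, 1 held in every alternative. From 48 to 96 h it moved by -3.16 for ins-22, -3.05 for ins-19, -2.14 for ins-11, -1.92 for ins-35, -1.87 for ins-10, -1.80 for ins-8, -1.68 for ins-20, -1.59 for ins-23, -1.56 for ins-7, -1.52 for daf-28 and -1.22 for ins-26, with limma adjusted p from 0.00079 to 0.0393. Of these, ins-19 and ins-10 kept their calls in every alternative run. The others lost them in some, ins-26 in 16 alternatives (after scaling -0.76, limma adjusted p = 0.151), ins-22 in 11, ins-20 in 4, daf-28 and ins-7 in 3 each, ins-8 and ins-11 in 2 each, and ins-23 and ins-35 without the libraries over 5% ribosomal RNA. From 8 to 96 h it moved by -3.30 for ins-19, -1.71 for ins-35, -1.44 for ins-10, -1.19 for ins-26, -1.15 for ins-7, -1.15 for ins-24 and -0.997 for ins-23, and by 1.35 for ins-33, with limma adjusted p from 4.46e-05 to 0.0383. Of these 8 calls, 3 held in every alternative.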

How the results depend on the processing

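Among single gene values, 8971 alternatives kept their side of the threshold, some of them changing sign while not called. Another 255 lost a call, 223 gained one and 1 reversed: ins-26 at 48 h, 0.05 as deposited, was -0.54 with array weights. Members changed at 8 h numbered 4, but 10 after median-of-ratios scaling, 10 after quantile scaling and 12 with array weights. Array weights gave 20 in place of 13 for controls from 8 to 48 h and 17 in place of 11 for the injury difference from 48 to 96 h. Without the libraries over 5% ribosomal RNA these were 5 in place of 13 for controls from 48 to 96 h and 3 in place of 11 for the injury difference over that step. From 8 to 48 h that difference changed in 4 members, and in 2 with a pseudocount of 0.1 or with at least 1 RPKM asked in 12 libraries. Leaving out 1 library at a time gave 2 to 10 members at 8 h, 12 to 17 at 48 h, 11 to 14 at 96 h, 10 to 16, 7 to 21 and 22 to 27 for controls from 8 to 48, 48 to 96 and 8 to 96 h, and 3 to 6, 7 to 14 and 5 to 8 for the injury difference over those steps. The highest counts at 8 h (10 and 7) came without control 48 h libraries 4 and 3, and the lowest (2) without control 8 h library 2. The control 48 h libraries enter the 8 h comparison only through the spread that all groups share in the model. Without control 8 h library 2 the injury difference from 8 to 96 h changed in 5 members in place of 8. Over all features, calls at 8 h went from 3316 to 5569, 5520, 6407 and 5290 under median-of-ratios scaling, quantile scaling, array weights and removal of the rRNA-rich libraries. Calls for controls from 48 to 96 h went from 1915 to 3116 (quantile), 5019 (weights), 797 (rRNA-rich libraries left out), 1185 (only these groups) and 963 to 3820 (1 library left out). Calls for the injury difference went from 2209 to 5727 (weights), 1448 (rRNA-rich libraries left out) and 1222 to 3619 (1 library left out) from 48 to 96 h, and from 6469 to 9821 (weights) from 8 to 96 h. The causes were not tested. No paired analysis was possible because the columns carry no replicate numbers.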
